A study of Mus musculus with 12 samples.

Results

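The replication-dependent histone genes of the mouse encode the bulk histones that package newly copied DNA. They were taken as all gene symbols of the deposited gene list that begin with Hist1h, Hist2h, Hist3h or Hist4h, which gave 67 of 32285 genes. By class they were 6 linker histone H1 genes, 18 H2A, 18 H2B, 12 H3 and 13 H4 genes. Of the 67, 54 carry the Hist1 prefix (chromosome 13), 10 Hist2 (chromosome 3), 2 Hist3 (chromosome 11) and 1 Hist4 (chromosome 6). In all, 65 had at least 1 UMI (a uniquely tagged, counted transcript) in the cells used, and Hist1h2bq and Hist1h2ba were at 0. The rule goes by symbol alone, so not every member need be tied to replication.

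The cells were T cells sorted from MCA205 tumours, formed in C57Bl/6 mice from 300000 cells of this mouse fibrosarcoma line injected under the skin. All mice, controls included, received the platinum drug oxaliplatin at 10 mg/kg on day 8 and, 8 days later, 200 µg of an antibody that blocks the T cell checkpoint receptor PD-1. The anti-ACBP group (3 mice) also received an antibody that neutralises acyl-CoA binding protein (ACBP, encoded by Dbi), and the isotype group (3 mice) received a control IgG2a. Either antibody was given at 2.5 mg/kg every 2 days, from 2 days ahead of oxaliplatin until the day preceding anti-PD-1. Tumours were taken 2 days after anti-PD-1, and CD4 and CD8 T cells were pooled in equal numbers, so their ratio is set by the sort. Ages of the mice are not stated in the labels. The deposited cell table lists 30749 cells with clusters 0 to 8, a cell cycle phase (G1, S or G2M) and S and G2M scores. Cells per mouse were 6350, 2923 and 4171 with anti-ACBP and 7238, 5361 and 4706 with isotype. Summed UMIs ran from 28037851 to 53150273 per anti-ACBP mouse and from 27791735 to 65519423 per isotype mouse. All 5 T cell markers were detected in every library at a sum of 4232 to 4914 CPM (UMIs of a gene or gene set for each 1000000 UMIs of the library), while 6 stromal and tumour markers summed to 0.175 to 0.533 CPM.

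Cells make most of their core histones (H2A, H2B, H3 and H4, which form the nucleosome) and linker histone H1 while DNA is copied in S phase. The mRNAs of most of these genes end in a stem-loop and mostly lack the poly(A) tail of other mRNAs. Stem-loop binding protein (Slbp) holds that stem-loop, and the mRNAs are degraded when replication ends. Transcription depends on the coactivator Npat under cyclin E and Cdk2. Single-cell kits that prime on poly(A) therefore count only a part of these transcripts, and the share they count was not measured here.

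Histone promoters carry short elements near the start, and 5 promoters from RefSeq (GRCm38.p6, 250 bases before to 50 after the gene's start) are shown because they belong to genes on which the results turn. Hist1h2ae is the H2A gene with the most UMIs (chr13:23571171-23571470, minus strand). Hist1h1b encodes a linker histone whose level differed strongly by phase (chr13:21780576-21780875, minus strand). Hist1h3c was at 0 in 1 library (chr13:23745472-23745771, minus strand). Hist1h4i is an H4 gene without CCAAT (chr13:22041313-22041612, minus strand), and Hist3h2ba is an H2B gene whose S against G1 difference did not pass the test (chr11:58948661-58948960, plus strand). Capitals mark the letters of the TATA element (TATAAA), the element bound by factor NF-Y (CCAAT) and the octamer element (ATTTGCAT), each read on either strand. They are marked at any distance from the start, so a marked stretch need not be a working element of that gene.
Hist1h2ae: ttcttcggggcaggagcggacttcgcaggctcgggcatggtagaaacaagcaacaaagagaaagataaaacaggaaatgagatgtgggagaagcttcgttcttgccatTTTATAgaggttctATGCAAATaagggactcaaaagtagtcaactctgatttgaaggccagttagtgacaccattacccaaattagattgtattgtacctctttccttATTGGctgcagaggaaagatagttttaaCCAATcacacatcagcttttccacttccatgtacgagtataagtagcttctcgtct
Hist1h1b: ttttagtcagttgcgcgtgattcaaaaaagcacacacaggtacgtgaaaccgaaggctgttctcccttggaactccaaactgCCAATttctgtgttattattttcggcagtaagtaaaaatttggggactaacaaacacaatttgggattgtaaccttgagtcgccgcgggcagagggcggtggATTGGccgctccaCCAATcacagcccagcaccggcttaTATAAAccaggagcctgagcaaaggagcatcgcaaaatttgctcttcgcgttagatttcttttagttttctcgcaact
Hist1h3c: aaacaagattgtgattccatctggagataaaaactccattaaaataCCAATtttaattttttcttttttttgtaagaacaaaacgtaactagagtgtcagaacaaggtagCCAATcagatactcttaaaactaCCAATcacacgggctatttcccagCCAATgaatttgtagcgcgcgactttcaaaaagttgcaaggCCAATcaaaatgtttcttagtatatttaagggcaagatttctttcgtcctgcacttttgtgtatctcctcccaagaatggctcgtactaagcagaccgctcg
Hist1h4i: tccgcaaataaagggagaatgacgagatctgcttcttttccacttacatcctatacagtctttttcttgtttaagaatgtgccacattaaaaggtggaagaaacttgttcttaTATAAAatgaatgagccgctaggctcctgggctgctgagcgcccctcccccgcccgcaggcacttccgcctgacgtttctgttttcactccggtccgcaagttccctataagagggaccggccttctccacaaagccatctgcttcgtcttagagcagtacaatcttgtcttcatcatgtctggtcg
Hist3h2ba: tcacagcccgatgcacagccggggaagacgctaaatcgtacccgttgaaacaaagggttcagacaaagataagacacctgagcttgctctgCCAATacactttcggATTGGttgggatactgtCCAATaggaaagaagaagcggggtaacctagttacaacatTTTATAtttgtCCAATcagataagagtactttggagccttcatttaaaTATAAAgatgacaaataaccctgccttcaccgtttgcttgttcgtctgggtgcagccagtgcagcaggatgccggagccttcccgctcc

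Of the members, 66 matched 1 RefSeq gene, and 61 members had a promoter in the table (62 promoters, since Hist1h2be had 2). CCAAT stood in 53 of 62 member promoters (85.5%), against 37.4% of all 32851 promoters of the same length. It was in every promoter of the H1, H2A, H2B and H3 genes and in 3 of 12 H4 promoters. TATAAA stood in 56.5% of member promoters, against 13.6% of all promoters. ATTTGCAT, the octamer element known from H2B promoters, stood in 14 of 62 member promoters (22.6%), 7 of 17 H2A and 7 of 17 H2B promoters, against 1.74% of all. The windows of Hist1h2ae and its H2B neighbour Hist1h2bg overlap on opposite strands, so letters in the shared stretch, the octamer among them, are counted for both. No member promoter of the H1, H3 or H4 classes held these 8 letters in this window.

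Library anti-ACBP 3 stood apart in the histone values. The deposited matrices store some entries with the value 0, which ordinary UMI matrices leave out. Among histone entries 16.2% were 0 in anti-ACBP 3, against 1.46% to 8.09% in the other 5 libraries, while over all genes the share was 0.255% to 0.484%. Hist1h3c, an H3 gene, had 245 stored entries in anti-ACBP 3 and all 245 were 0, although it had 17.3 and 15.7 CPM in anti-ACBP 1 and 2 and 11.1, 16.8 and 20.3 CPM in isotype 1 to 3. Hist1h3b, another H3 gene, had 52 of 52 entries at 0 there, against 1.94 and 2.28 CPM in anti-ACBP 1 and 2 and 1.45 to 3.63 CPM with isotype. Over genes with at least 500 entries, the median share of zeros was 5.32% for 43 histone genes and 0.240% for all 10093 genes. Of those genes, 11 histone genes and 42 genes in all exceeded 10%. The sources used here do not say if ambient RNA had been removed, and its part in the histone values was not tested. Counting each stored 0 as 1 UMI left every count of called members below within 1.5 times.

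**Figure D1:**
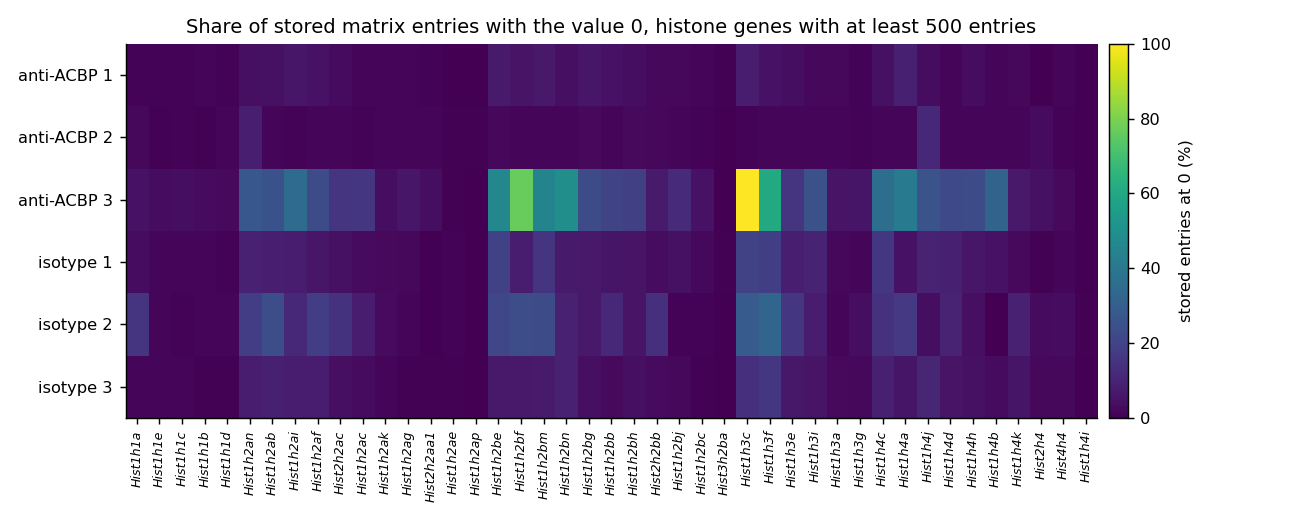
Share of stored matrix entries with the value 0 (colour, percent) for histone genes with at least 500 entries (columns, ordered by class) in each library (rows). The anti-ACBP 3 row is brightest, with Hist1h3c at 100%.

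A column of the cell table named DF1, which the sources used here do not define, also bears on the histone genes. It was FALSE in 81.0%, 26.9% and 81.7% of the cluster 4 cells of anti-ACBP 1 to 3 and in 31.2%, 7.75% and 19.9% of those of isotype 1 to 3. Cells with DF1 FALSE held 80.1%, 13.7% and 73.7% of all histone UMIs in anti-ACBP 1 to 3, against 19.97%, 10.1% and 8.08% in isotype 1 to 3. These cells were kept, and the results that change without them are given in place. Pairs of libraries shared at most 63 cell barcodes.

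A small number of genes supplied most histone UMIs. The H2A gene Hist1h2ae held 13.3% of them and the H1 gene Hist1h1e 13.0%, followed by Hist1h1b at 9.67%, Hist1h2ap at 7.20%, Hist1h4d at 6.98%, Hist1h1d at 6.95% and Hist1h1c at 5.84%. As classes, H1 held 37.3%, H2A 31.0%, H4 14.8%, H2B 9.24% and H3 7.63% of the histone UMIs. Levels here are CPM of UMIs counted near the 5′ end and not divided by length, so they compare cells and not the output of genes. In all cells Hist1h2ae had 247, 180 and 154 CPM in anti-ACBP 1 to 3 and 186, 189 and 240 CPM in isotype 1 to 3. Hist1h1e had 194, 188 and 152 CPM with anti-ACBP and 159, 285 and 258 CPM with isotype. The groups overlapped for both genes. At the other end, 11 members did not pass the filter on low counts in the comparison of phases and were not tested there. Many members are near-identical copies, and the sources used here do not say how reads shared between copies were counted, so values of single genes such as Hist1h2ap, which matched no single RefSeq gene, are uncertain.

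Histone transcripts followed the phase labels of the cells. Summed over the 67 genes, the level was 290 ± 64.7 CPM in G1 cells, 2059 ± 439 CPM in S cells and 5734 ± 1316 CPM in G2M cells (SD, n = 6 mice). G2M cells were 11.4% of cells and held 59.1% of the histone UMIs, while G1 cells were 71.3% of cells and held 11.2%. The phase labels were derived from RNA of the same cells. The sources used here do not name the genes behind them, so the tests below compare labelled cells and say nothing independent about the timing of replication.

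The core H2A gene Hist1h2ae had a lowest, median and highest level of 8.27, 10.4 and 15.9 CPM over the 6 mice in G1 cells. In S cells it had 155, 260 and 399 CPM, and in G2M cells 600, 855 and 1069 CPM. The linker histone gene Hist1h1b had 3.31, 5.20 and 5.93 CPM in G1 cells, 155, 227 and 300 CPM in S cells and 347, 651 and 751 CPM in G2M cells. The 3 phases did not overlap between mice for either gene. The most abundant linker gene, Hist1h1e, kept a higher floor, with 39.1, 43.2 and 89.4 CPM in G1 cells, 218, 253 and 290 CPM in S cells and 447, 720 and 985 CPM in G2M cells. Hist1h4d, an H4 gene, had 24.3, 33.0 and 38.8 CPM in G1 cells, 70.2, 129 and 176 CPM in S cells and 235, 363 and 508 CPM in G2M cells.

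**Figure D2:**
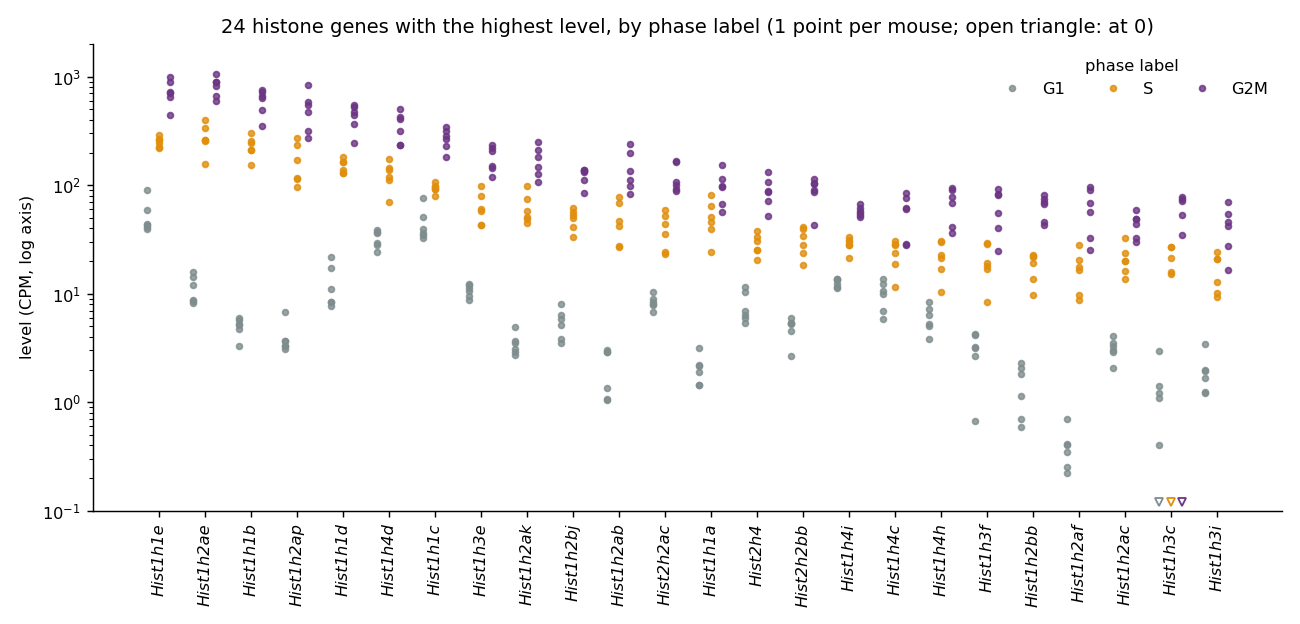
Level (CPM, log axis) of the 24 histone genes with the highest level, with 1 point per mouse in G1, S and G2M labelled cells, and open triangles for a level of 0. Levels of Hist1h2ae were 8.27 to 15.9 CPM in G1, 155 to 399 in S and 600 to 1069 in G2M cells, and the triangles of Hist1h3c are anti-ACBP 3.

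UMIs summed per mouse and phase were tested with edgeR's quasi-likelihood test with the mouse as a block and Benjamini-Hochberg adjustment over all genes, and a gene was called at an adjusted p under 0.05. In S against G1 cells 53 of 56 tested members rose and none fell, where 31.8% of all 11499 genes tested were higher and 31.0% lower. The median log2 fold change of the members was 2.93, against -0.02 for all genes. In G2M against G1 cells 56 of 56 rose, where 29.1% of all genes were higher and 30% lower, with a median of 4.26. In G2M against S cells 54 of 56 rose, where 16.4% of all genes were higher and 17.9% lower, with a median of 1.33. DESeq2 gave the same 3 counts.

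Among the 12 most abundant members, Hist1h2ap and Hist1h1b differed most between G2M and G1. Hist1h2ap rose by 6.92 ± 0.22 on the log2 scale (SE; edgeR adjusted p = 1.43e-10) and Hist1h1b by 6.88 ± 0.24 (adjusted p = 3.22e-10). Hist1h2ae rose by 6.17 ± 0.25, Hist1h2ab (H2A) by 6.02 ± 0.25, Hist1h2ak (H2A) by 5.61 ± 0.15 and Hist1h1d (H1) by 5.15 ± 0.26. Hist1h2bj (H2B) rose by 4.504 ± 0.11, Hist1h3e (H3) by 4.03 ± 0.19, Hist1h1e by 3.83 ± 0.18, Hist2h2ac (H2A) by 3.82 ± 0.16 and Hist1h4d by 3.43 ± 0.14. The linker gene Hist1h1c rose least among them, by 2.62 ± 0.16 (adjusted p = 5.91e-08). By class, the median log2 fold change in G2M against G1 was 5.31 for 14 H2A genes, 5.15 for 5 H1 genes, 4.45 for 15 H2B genes, 4.38 for 10 H3 genes and 3.42 for 12 H4 genes. No difference between classes was tested.

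The 3 members that did not pass in S against G1 were all H2B genes, Hist2h2be at a log2 fold change of -0.10 ± 0.24 (SE; adjusted p = 0.740), Hist3h2ba at -0.08 ± 0.13 (adjusted p = 0.601) and Hist1h2bc at -0.04 ± 0.14 (adjusted p = 0.820). Hist3h2ba had a lowest, median and highest level of 6.30, 7.11 and 8.64 CPM in G1 cells, 5.55, 6.78 and 7.43 CPM in S cells and 15.3, 20.2 and 26.1 CPM in G2M cells, so G1 and S overlapped and G2M lay above both. In these genes a large part of the UMIs came from G1 cells, 54.5% for Hist2h2be, 49.0% for Hist3h2ba and 45.3% for Hist1h2bc, against 3.61% for Hist1h2ae. All 3 rose in G2M against G1, by 0.90 ± 0.22 for Hist2h2be (adjusted p = 0.00104), 1.46 ± 0.11 for Hist3h2ba (adjusted p = 4.53e-11) and 1.58 ± 0.12 for Hist1h2bc (adjusted p = 6.62e-12). Hist3h2a, an H2A gene with 127 UMIs, did not pass the count filter and had 59.8% of its UMIs in G1 cells. The members that did not pass in G2M against S were Hist1h3a (0.24 ± 0.12, adjusted p = 0.138) and Hist1h2ad (0.53 ± 0.42, adjusted p = 0.354). Hist1h3a, an H3 gene, had a median of 2.05 CPM in G1, 24.9 CPM in S and 27.5 CPM in G2M cells.

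The sign of the 2 deposited scores set apart the cells that held most histone UMIs. Cells with both scores above 0 had 5632 ± 1091 CPM (SD, n = 6 mice), and these 3966 cells (12.9%) held 84.0% of the histone UMIs. The 3477 cells with an S score above 0 and a G2M score at most 0, all named S, had 313 ± 76.3 CPM. The 21911 cells with both scores at most 0, all named G1, had 290 ± 64.7 CPM. The ranges over mice of those last 2 sets overlapped, at 240 to 404 and 227 to 379 CPM. The 1395 cells with only the G2M score above 0 had 947 ± 449 CPM, from 526 to 1645 CPM. Among cells with both scores above 0, those named G2M had 7206 ± 1676 CPM and those named S 3892.5 ± 747 CPM. The median depth was 12792 UMIs per cell with both scores above 0 and 6077 with only the S score above 0. No test was made between these sets, since scores and histone levels come from the same cells.

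**Figure D3:**
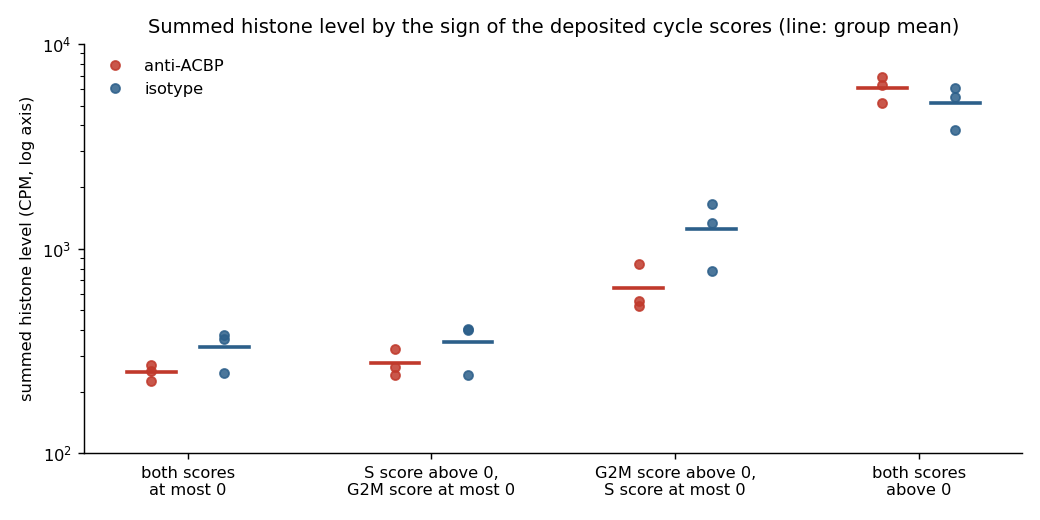
Summed level of 67 histone genes (CPM, log axis) per mouse by the sign of the deposited S and G2M scores, anti-ACBP left of isotype, with a line at each group mean. Cells with both scores above 0 lay between 3809 and 6931 CPM, and cells with only the S score above 0 between 240 and 404 CPM, near those with neither.

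Single cells showed the same order of phases. After thinning each cell to 2000 UMIs, at least 1 histone UMI was found in 39.6% of G1, 54.5% of S and 80.8% of G2M cells, and 5 or more in 0.604%, 15.2% and 48.9%. Without thinning the shares with any UMI were 70.2%, 81.0% and 90.5%, at median depths of 5856, 7676 and 9840 UMIs. No cell type here is known to lack all these genes, so the G1 share is the nearest to a background, and free RNA in the droplets was not separated from it. The 5% of cells with the most histone UMIs held 69.8% of them.

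Cluster 4 held the largest part of the histone UMIs. It had 2399 cells, none named G1, which were 7.80% of all cells and held 66.4% of the histone UMIs. Its summed level was 8071, 8450 and 6229 CPM in anti-ACBP 1 to 3 and 4705, 8152 and 6639 CPM in isotype 1 to 3. Cluster 2, regulatory T cells by Foxp3, came next with 1234, 1360 and 799 CPM with anti-ACBP and 1647, 1246 and 1848 CPM with isotype, and held 15.5% of the histone UMIs in 14.95% of cells. Clusters 8 and 5 averaged 925 and 831 CPM over the 6 mice. Clusters 6, 3, 0, 1 and 7 averaged 452, 440, 348, 297 and 288 CPM, and neighbours in that order overlapped between mice. The clusters were made from the expression of the same cells, so these levels are a description. Between treatments, cluster 7 had 235, 237 and 157 CPM with anti-ACBP and 411, 383 and 302 CPM with isotype, and cluster 8 had 970, 900 and 408 CPM with anti-ACBP and 1027, 1066 and 1179 CPM with isotype. The groups did not overlap in these 2 clusters. Cluster 7 held 74, 60 and 96 cells with anti-ACBP and 281, 170 and 92 cells with isotype. Cluster 8 held 46, 19 and 14 cells with anti-ACBP and 330, 45 and 43 cells with isotype, so its 408 CPM rests on 14 cells. Within G1 cells the cluster means lay closer, from 217 CPM in cluster 7 to 405 CPM in cluster 8. Within G2M cells they ran from 608 CPM in cluster 6 to 7751 CPM in cluster 4, with 4306 CPM in cluster 2.

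**Figure D4:**
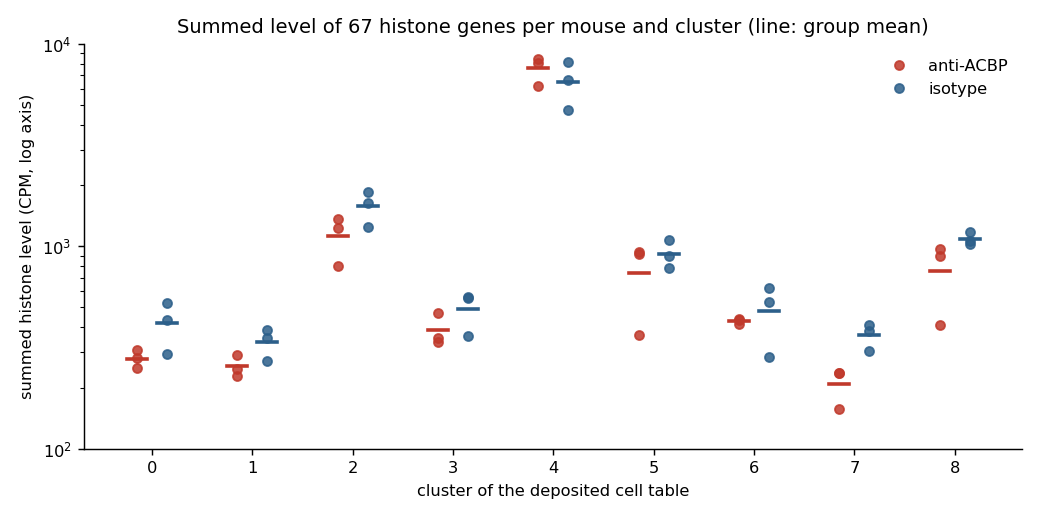
Summed level of 67 histone genes (CPM, log axis) per mouse in clusters 0 to 8, anti-ACBP left of isotype, with a line at each group mean. Cluster 4 lay between 4705 and 8450 CPM and cluster 2 between 799 and 1848 CPM, and the other clusters between 157 and 1179 CPM.

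Most members also rose with phase outside cluster 4, and within it the median difference of G2M against S was near 0.39 on the log2 scale. In cells outside cluster 4, S against G1 gave 48 of 54 members higher and 2 lower, where 27.0% of all genes were higher and 23.9% lower, with a median log2 fold change of 1.90. The 2 that fell were the H2B genes Hist1h2bc (-0.48 ± 0.16, edgeR adjusted p = 0.0119) and Hist3h2ba (-0.40 ± 0.16, adjusted p = 0.0357). In the same cells G2M against G1 gave 52 of 54 members higher (24.6% of all genes higher and 20.3% lower) and G2M against S 47 of 54 (14.8% higher and 15.8% lower). In S against G1, Hist1h1c, at 1.17 ± 0.16 in all cells, was at 0.25 ± 0.13 outside cluster 4 (adjusted p = 0.135). Within cluster 4, G2M against S gave 34 of 53 members higher and 1 lower, where 17.7% of all genes were higher and 17.7% lower, with a median of 0.39. The member that fell was Hist1h3a (-0.48 ± 0.09). The members that rose included Hist2h2ab, an H2A gene (1.45 ± 0.23), and Hist3h2ba (1.30 ± 0.14), and Hist1h1b was at 0.22 ± 0.08 (adjusted p = 0.0585). These genes were named after their values were seen.

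CD8 cells had a higher histone level than conventional CD4 cells in each of the 6 mice. The summed level was 1839 ± 458 CPM in CD8, 1451 ± 398 in regulatory and 845 ± 290 CPM in conventional CD4 T cells (SD, n = 6). In G2M cells it was 6360 ± 1465 CPM in CD8, 4529 ± 693 CPM in regulatory and 4311 ± 1534 CPM in conventional CD4 T cells, and the ranges overlapped. In S cells it was 2153 ± 434, 2402 ± 790 and 1223 ± 433 CPM in CD8, regulatory and conventional CD4 T cells. No test was made between lineages.

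Genes around the histone pathway also differed by phase. Some of them may be among the genes behind the phase labels, which the sources used here do not name. Their differences by phase are therefore a description of the labelled cells. Of 20 genes of histone transcription and mRNA processing, 18 rose and 1 fell in S against G1, with a median log2 fold change of 0.73. Of all genes, 31.8% were higher and 31% lower in S against G1, and 16.4% higher and 17.9% lower in G2M against S. Slbp, which binds the histone stem-loop, rose by 1.35 ± 0.05 (SE), the coactivator Npat by 0.53 ± 0.06, Casp8ap2 (a protein of the histone locus body) by 1.21 ± 0.05 and the cyclin gene Ccne2 by 3.87 ± 0.09, while Lsm10 of the U7 particle fell by 0.17 on the log2 scale (edgeR). In G2M against S, 6 of these 20 rose and 6 fell, among them Slbp at -0.30 ± 0.05, Ccne2 at -0.81 ± 0.08 and Casp8ap2 at -0.32 ± 0.05. Of 18 histone chaperone and assembly genes, 17 rose and 1 fell in S against G1, and in G2M against S 2 rose and 10 fell. Chaf1a, the large subunit of chromatin assembly factor 1, rose by 2.88 ± 0.06 in S against G1 and was at -0.36 ± 0.06 in G2M against S. In G2M against S most histone genes rose, 23 of 35 DNA replication genes fell and 5 rose, and 25 of 25 G2 and mitosis genes rose. Genes of the last 2 lists may have been used to make the phase labels. Their split may thus be set by the labels and is no independent contrast to the histone genes.

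Variant histones, which are made outside S phase too and have polyadenylated mRNAs, were tested in the same way. In S against G1, 7 of 10 rose and 1 fell, with a median of 0.30, where 31.8% of all genes were higher and 31% lower. H2afz (H2A.Z) rose by 0.99 ± 0.04 and H3f3a (H3.3) by 0.22 ± 0.02, H1f0 fell by 0.24 on the log2 scale, and H3f3b was at -0.01 ± 0.03 (edgeR adjusted p = 0.664). In G2M against G1 all 10 rose, with a median of 1.22, where 29.1% of all genes were higher and 30% lower. H2afv rose by 2.09 ± 0.03, H2afx by 3.38 ± 0.10 and Cenpa, the centromeric H3, by 2.23 ± 0.09. Markers of cell types moved with phase too. T cell markers fell in S against G1 (5 of 5) and in G2M against G1 (4 of 5), and Cd4 fell, at -1.11 ± 0.10 and -1.20 ± 0.10, while neither of 2 CD8 lineage markers passed. Of 4 natural killer genes 1 fell in S against G1 and 3 in G2M against G1, and of 3 myeloid genes 2 fell in each. The natural killer and myeloid counts are too small to be set apart from the share of all genes that fell. The part of cell composition in the phase differences was not tested.

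Over 49 pools of a mouse and a cluster with at least 50 cells, the genes whose log2(CPM + 1) was most like that of the summed histones were Top2a (r = 0.971), Rrm1, Smc2, Aurkb, Ptma, Mad2l1, Incenp, Usp1, Dek and Smc4 (r = 0.954) out of 7461 genes. Top2a encodes topoisomerase II alpha, Rrm1 a subunit of ribonucleotide reductase, and Smc2 and Smc4 condensin subunits. The pools share libraries and depth. Of the members ranked with them, Hist1h1d had the highest r with the sum (0.982), and Hist1h2bc (0.550) and Hist2h2be (0.122) the lowest.

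Between treatments the summed histone level overlapped. It was 1647, 1562 and 1047 CPM in anti-ACBP 1 to 3 and 1263, 1762 and 2069 CPM in isotype 1 to 3, a mean of 1419 ± 324 CPM with anti-ACBP and 1698 ± 407 CPM with isotype (SD, n = 3 each). A sum over all cells rises with the share of cycling cells and with the level in each, which the sum cannot tell apart. The share of cells named G2M was 8.29 ± 1.66% with anti-ACBP and 13.7 ± 2.31% with isotype, without overlap (exact two-sided permutation p = 0.1, the smallest that 3 against 3 mice allow). The share named S was 15.7 ± 0.470% with anti-ACBP and 19.1 ± 3.18% with isotype (exact two-sided permutation p = 0.3). With the phase mix of all mice pooled given to each mouse, the mean level was 1711 CPM with anti-ACBP and 1481 CPM with isotype, so the difference turned from -279 to 231 CPM. The groups still overlapped, at 1808, 1950 and 1376 CPM with anti-ACBP and 1159, 1683 and 1600 CPM with isotype. This turn of sign holds for all cells and was not computed for DF1 TRUE cells. With DF1 TRUE cells the anti-ACBP mean was the lower one in each phase, with overlap. It was 251 against 331 CPM in G1, 1144 against 1802 CPM in S and 3542 against 5529 CPM in G2M cells. Leaving out 1 mouse, the difference was -393, -351 and -93.4 CPM without anti-ACBP 1, 2 and 3 and -497, -247 and -93.6 CPM without isotype 1, 2 and 3.

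Some gene lists did not overlap between the groups. Among single genes tested in all T cells, 14.2% were lower and 14.3% higher without overlap, and no such share was computed for lists. G2 and mitosis genes summed to 1799, 1470 and 1382 CPM in anti-ACBP 1 to 3. In isotype 1 to 3 they summed to 2185, 2017 and 2520 CPM. DNA replication genes summed to 1558, 1540 and 1372 CPM with anti-ACBP and 1730, 1744 and 1975 CPM with isotype. Histone chaperone and assembly genes summed to 2016, 2050 and 1908 CPM with anti-ACBP and 2168, 2125 and 2270 CPM with isotype. The lists of variant histones and of histone transcription and processing overlapped. Overlap was also seen for the myeloid, natural killer, stromal and tumour, T cell, CD8 lineage and CD4 lineage markers. B cell markers (5 genes, 2 at 0) summed to 23.9, 37.3 and 21.8 CPM in anti-ACBP 1 to 3 and 51.7, 38.6 and 43.8 CPM in isotype 1 to 3, and regulatory T cell markers (4 genes, none at 0) to 828, 1333 and 1032 CPM with anti-ACBP and 1340, 1580 and 1418 CPM with isotype. Endothelial markers (4 genes, 1 at 0) summed to 11.5, 17.5 and 17.3 CPM with anti-ACBP and 20.8, 21.7 and 18.8 CPM with isotype. Erythroid markers (4 genes, 1 at 0) summed to 0.0188, 0.0357 and 0.0583 CPM with anti-ACBP and were at 0 in all 3 isotype libraries. The erythroid values rest on very few UMIs at the floor of the counts, so they show no difference between treatments. The part of these lists in the histone values was not tested.

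edgeR called no member between treatments in all T cells, CD8 or conventional CD4 T cells, and DESeq2 called 1, in CD8 T cells. In all T cells 0 of 56 members passed in edgeR, where 1.51% of all 12491 genes were higher and 0.841% lower. At an unadjusted p under 0.05, 3 members were lower and none higher, where 10.5% of all genes were lower, and DESeq2 called none, where it called 3.91% of all genes lower. The median log2 fold change of the members was -0.38, with 51 of 56 negative. The groups did not overlap for 3 members, Hist1h2bj, Hist1h4i and Hist1h4b, all lower with anti-ACBP, where 14.2% of all genes were lower and 14.3% higher without overlap. In CD8 T cells 0 of 54 passed, where 0.486% of all genes were higher and 0.443% lower, with a median of -0.43. There, 2 members were lower at an unadjusted p under 0.05 (8.34% of all genes), and DESeq2 called 1 lower (2.19% of all genes). There 3 members were lower without overlap and none higher, where 8.69% of all genes were lower and 15.7% higher in that way. In conventional CD4 T cells 0 of 51 passed, where 0.247% of all genes were higher and 0.0823% lower, with a median of -0.24. In conventional CD4 T cells 2 members were lower at an unadjusted p under 0.05 (6.63% of all genes), and DESeq2 called none (0.919% of all genes lower). Without overlap 1 member was lower and none higher, where 10.7% of all genes were lower and 10.3% higher. Without isotype 1 the CD8 comparison called 11 of 56 members lower, where 2.79% of all genes were lower and 3.51% higher.

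In regulatory T cells 2 of 47 tested members fell by edgeR, where 1.37% of all 10431 genes were lower and 2.08% higher. At an unadjusted p under 0.05, 13 members were lower and none higher, where 10.6% of all genes were lower, and DESeq2 called 3 lower (1.95% of all genes). Hist1h2bj (H2B, chr13:22043198-22043658) had 39.5, 30.6 and 29.5 CPM in anti-ACBP 1 to 3 and 74.4, 52.2 and 71.6 CPM in isotype 1 to 3. All 3 anti-ACBP mice lay below the isotype mice, and the log2 fold change was -0.999 with an SE of 0.17 (edgeR adjusted p = 0.0223). Hist2h4 (H4, chr3:96262934-96263317) had 15.2, 14.0 and 7.67 CPM with anti-ACBP and 21.3, 23.2 and 27.4 CPM with isotype, again without overlap (-0.90 ± 0.21, edgeR adjusted p = 0.0452). The median of the members was -0.51, and 8 members did not overlap between groups, all lower with anti-ACBP, where 11.9% of all genes did so and 14.7% were higher without overlap. Without anti-ACBP 3, the calls were lost for Hist1h2bj (adjusted p = 0.0953) and Hist2h4 (adjusted p = 0.0992). They were also lost for both genes without anti-ACBP 2 or isotype 3, and for Hist2h4 without anti-ACBP 1 or isotype 1. Without isotype 2, 6 members were lower, where 3.83% of all genes were lower and 3.62% higher. In regulatory T cells 9.86%, 6.68% and 6.23% of cells were named G2M in anti-ACBP 1 to 3, against 18.9%, 11.3% and 18.1% in isotype 1 to 3. Within their G2M cells the summed histone level was 4668, 5229 and 5146 CPM with anti-ACBP and 3366, 4143.5 and 4623 CPM with isotype, so every anti-ACBP mouse lay above every isotype mouse. These levels rest on 71, 32 and 21 cells with anti-ACBP and 267, 100 and 163 cells with isotype. They were not split by DF1. Over all regulatory T cells, 8 of 35 DNA replication genes and 5 of 25 G2 and mitosis genes also fell and none rose, among them Rrm1 (-0.67 ± 0.12), Mcm6 (-0.49 ± 0.10) and Bub1b (-1.03 ± 0.19).

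In G1 cells 41 of 44 members had a negative and 3 a positive log2 fold change, in S cells 19 a negative and 32 a positive one, and in G2M cells 23 a negative and 31 a positive one. In G2M cells the H4 gene Hist4h4 (chr6:136803993-136804431) rose as the only one of 54 members called by edgeR, where 0.818% of all 10392 genes were higher and 0.779% lower. It had 44.6, 44.1 and 35.9 CPM in anti-ACBP 1 to 3 and 22.2, 28.0 and 24.8 CPM in isotype 1 to 3, without overlap, and its log2 fold change was 0.74 with an SE of 0.13 (edgeR adjusted p = 0.0156). Without the cells marked DF1 FALSE it had 12.7, 49.9 and 9.63 CPM with anti-ACBP and 25.8, 29.9 and 26.7 CPM with isotype, and the change turned to -0.08 (adjusted p = 0.972). In all G2M cells 4 members were higher and none lower at an unadjusted p under 0.05 (7.79% of all genes higher), and DESeq2 called 4 higher (1.27% of all genes). There 4 members were higher without overlap and none lower, where 11.7% of all genes were higher and 10% lower in that way. The call of Hist4h4 was lost without anti-ACBP 1 (adjusted p = 0.124), anti-ACBP 2 or isotype 3. Without isotype 1, 4 members of 55 were lower and 1 higher, where 1.56% of all genes were lower and 2.21% higher. In S cells 0 of 51 members passed, where 0.233% of all genes were higher and 0.252% lower, with a median of 0.15. In S cells 1 member was higher at an unadjusted p under 0.05 (7.52% of all genes), and DESeq2 called 1 higher (0.848% of all genes). Without overlap 2 members were higher and 1 lower, where 10.4% of all genes were higher and 10.2% lower. In G1 cells 0 of 44 passed, where 1.03% were higher and 0.774% lower, with a median of -0.32. In G1 cells 3 members were lower at an unadjusted p under 0.05 (8.79% of all genes), and DESeq2 called 1 lower (2.29% of all genes). Without overlap 3 members were lower and none higher, where 10.7% of all genes were lower and 13.5% higher. In cluster 4 cells 0 of 54 passed, where 0.326% were higher and 0.592% lower, with a median of 0.02. At an unadjusted p under 0.05, 3 members were higher (5.39% of all genes) and 1 lower (6.27%), and DESeq2 called 2 higher (0.523% of all genes). Without overlap 3 members were higher and 1 lower, where 10.6% of all genes were higher and 7.3% lower. Whether the S against G1 difference itself differed between treatments was tested as an interaction, and 0 of 56 members passed, where 0.00856% of all genes were higher and 0% lower, with 7 members higher at an unadjusted p under 0.05 (2.41% of all genes).

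The linker gene Hist1h1a had 64.6, 80.3 and 50.9 CPM in anti-ACBP 1 to 3 and 39.4, 24.05 and 46.2 CPM in isotype 1 to 3 in S cells. The groups did not overlap, and the change of 0.83 ± 0.27 did not pass (edgeR adjusted p = 0.264). With DF1 TRUE cells it was at -0.18 ± 0.91 (adjusted p = 0.950). In G1 cells the linker gene Hist1h1d was at -1.01 ± 0.22 (adjusted p = 0.0711). Both were named after their values were seen.

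The DF1 column divided the cycling cells of anti-ACBP 1 and 3. With DF1 TRUE cells only, the summed level was 395, 1464 and 324 CPM in anti-ACBP 1 to 3 and 1166, 1762 and 2023 CPM in isotype 1 to 3, and the difference of means went to -923 CPM, against -279 CPM in all cells. Among G2M cells with DF1 TRUE it was 1292, 7899 and 1436 CPM in anti-ACBP 1 to 3 and 4066, 6981 and 5541 CPM in isotype 1 to 3. Among G2M cells with DF1 FALSE it was 9197, 4542 and 7042 CPM with anti-ACBP and 2627, 3973 and 3191 CPM with isotype. Among G1 cells of anti-ACBP 1 to 3 the level was 271, 254 and 226 CPM where DF1 was TRUE and 279, 210 and 240 CPM where it was FALSE. With DF1 TRUE cells 52 of 56 members were higher in S against G1 (median 2.64, with 28.4% of all genes higher and 25.2% lower), 56 in G2M against G1 (median 3.95, 25.4% and 22.8%) and 52 in G2M against S (median 1.49, 12.1% and 13.3%). The medians between treatments with DF1 TRUE cells were -0.65 in S, -0.61 in G2M and -0.51 in cluster 4 cells, with no member called by edgeR. Of all genes, 0.283% were higher and 0.17% lower in S, 0.0817% and 0.0306% in G2M, and 0.0829% and 0.135% in cluster 4 cells. At an unadjusted p under 0.05, 3 members were lower in S (6.86% of all genes), 1 in G2M (5.17%) and 3 in cluster 4 cells (5.07%) with DF1 TRUE, and none was higher. DESeq2 was not run on these cells.

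**Figure D5:**
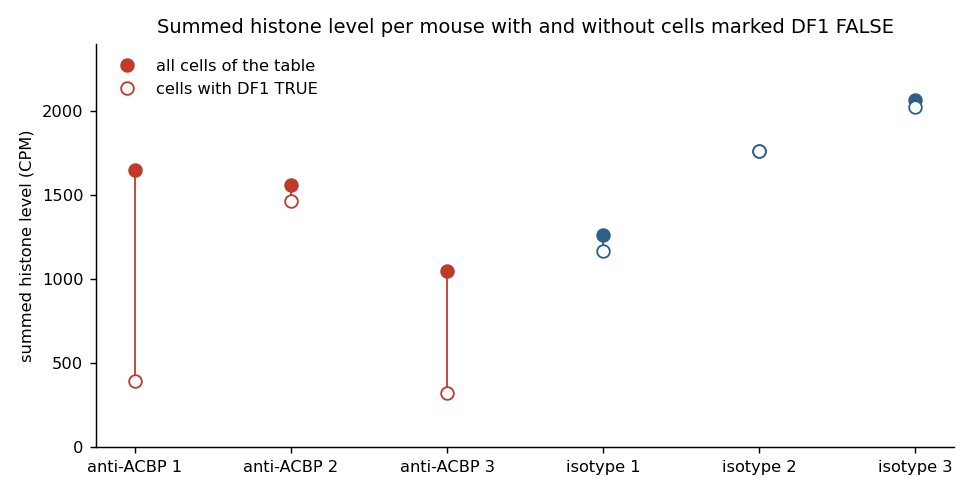
Summed level of 67 histone genes (CPM) per mouse in all cells (filled) and in cells with DF1 TRUE (open), anti-ACBP left of isotype. Without DF1 FALSE cells anti-ACBP 1 and 3 had 395 and 324 CPM, and the other 4 mice had 1166 to 2023 CPM.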

How the data were processed

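Single-cell 5′ libraries of 3 anti-ACBP and 3 isotype mice were analysed, and the T cell receptor libraries served only to mark cells with 2 or more TRB chains. Such cells were marked in isotype 1 alone, so leaving them out took isotype 1 from 7238 to 6889 cells. That alternative changed no other mouse and says nothing about such cells there. Values used are the raw UMI counts (whole, unscaled) of the deposited matrices. Clusters, phases, scores and DF1 come from the deposited cell table, per the file headers. The submitters' processing notes name Cell Ranger 7.0.0, Seurat and mm10 without roles. Members and gene lists were chosen with earlier results of these data known. Counts were summed per mouse and cell set, with receptor and immunoglobulin segments left out. They were tested with edgeR 4.0.16 (quasi-likelihood, robust, TMM, filterByExpr) or, as an alternative, DESeq2 1.42.0, with Benjamini-Hochberg adjustment over all genes at 0.05. Phase comparisons used 18 sums with the mouse as a block. Replicates are mice. By lineage markers, CD8 T cells are clusters 0, 3 and 6, conventional CD4 cells clusters 1 and 7, and regulatory cells cluster 2, while cells of 4, 5 and 8 went by their own UMIs. All tests are two-sided; a change above 0 is higher with anti-ACBP or in the later phase. In simulated data with 2-fold changes in 200 genes, 97.5% were recovered in all T cells. The simulation gave every gene the same spread between mice and changed only well-counted genes. It therefore does not show the power for histone genes, whose own spread was not simulated. Doublets were not called. Named members are those called between treatments, the 12 with the highest CPM and, for other lists, up to 4 called genes with the smallest p, and further genes were named after their values were seen. Replicate numbers were not taken as pairs. Alternatives tried were DESeq2, its size factors, no count filter, replicate or no mouse block, DF1 TRUE cells, cells without 2 or more TRB chains, lineage by own UMIs, cluster 4 apart, stored zeros as 1 UMI, thinning and leaving out each mouse. Depth per mouse is 27791735 UMIs or more.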

Additional observations from a re-analysis of the deposited data

Results flagged for a closer look

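Barcodes of the matrices that the cell table does not list, which the comparisons do not use, held histone UMIs. Their summed histone level was 3938, 2671 and 1434 CPM in anti-ACBP 1 to 3 and 2443, 2692 and 2064 CPM in isotype 1 to 3. It was above the level of the listed cells in all 3 anti-ACBP libraries (1647, 1562 and 1047 CPM) and in isotype 1 and 2 (1263 and 1762 CPM), and close to it in isotype 3 (2069 CPM). Hist1h3c had 0 UMIs in these barcodes of anti-ACBP 3 too, where 185 stored entries were 0.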

How the results depend on the processing

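Members called between treatments depended on the setting. Where no share of all genes is given here or above, none was computed for that setting. Such a count is not a result about the members. DESeq2 called 1 lower in CD8 (2.19% of all genes lower), 3 lower in regulatory T (1.95%), 1 higher in S (0.848% higher), 1 lower in G1 (2.29% lower), 4 higher in G2M (1.27% higher) and 2 higher in cluster 4 cells (0.523%). Without the count filter there were 7 lower in regulatory T cells, 3 higher in G2M, 4 higher and 1 lower in cluster 4 and 13 higher in the interaction. The replicate block gave 1 lower in regulatory T cells, 2 higher in G2M and 1 higher in cluster 4. Deviations from the group means correlated at 0.194, -0.0983 and -0.0457 between same-numbered mice. With 3 mice per group, these values cannot show whether the numbers pair mice. DF1 TRUE cells gave 4 lower in regulatory T cells and 0 in G2M cells, where Hist4h4 turned to -0.078, and lineage by own UMIs gave 4 lower in regulatory T cells. Leaving out 1 mouse gave 0 to 4 lower in all T, 0 to 11 in CD8, 0 to 1 in conventional CD4, 0 to 6 in regulatory T and 0 to 3 in G1 cells, 0 to 3 higher and 0 to 4 lower in G2M, 0 to 2 higher and 0 to 3 lower in cluster 4 and 0 to 2 higher in the interaction. Phase calls without 1 mouse stayed at 52 to 53, 55 to 56 and 53 to 55 members. Cluster 4 apart, S against G1 gave 2 lower, and within it G2M against S gave 34 higher and 1 lower. The treatment difference in summed level ran from -497 to -93.4 CPM without 1 mouse, was 231 CPM with the pooled phase mix and -923 CPM with DF1 TRUE cells. The pooled phase mix was not applied to DF1 TRUE cells. Shares of cells with a histone UMI without thinning were 70.2%, 81.0% and 90.5% in G1, S and G2M cells. Of the single named members' values under alternatives, 506 kept direction and side of the threshold, 14 lost the call and 1 reversed, and the cause was not tested. Most of these values are phase comparisons of the most abundant members. Most lost calls, and the reversal (Hist4h4 with DF1 TRUE cells), were among the members called between treatments. The pooled count therefore says little about the treatment calls.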
